A study of Rattus norvegicus with 20 samples.

Results

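The liver pool was a single small RNA library made from the combined miRNA of 3 male Long Evans rats, left untreated and taken at postnatal day 35. It was 1 of 20 libraries in the study and was chosen by its label. It was set against 13 reference tissues held in 15 libraries: 12 pools made in the same way (fat, heart, kidney, large intestine, lung, muscle, skin, small intestine, spleen, stomach, testes and thymus) and brain, for which 3 hemispheres were sequenced singly and averaged. The 3 serum libraries and a pool labelled pancreas were left out of the reference, and the latter was then compared with liver on its own. All tissues came from the same 3 animals, with no treatment and no other strain, sex or age, so every comparison below is between tissues of 1 small cohort. Because liver was 1 library, its values have no replicate check.

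miRNAs are short RNAs cut from a hairpin precursor, and 1 arm of the hairpin is usually kept to guide the silencing of messenger RNAs that match its seed. The liver is dominated by hepatocytes, in which miR-122 is the classic tissue-restricted miRNA and takes part in cholesterol and lipid metabolism. miR-192, miR-194 and miR-215 form another hepatocyte group, shared with gut and kidney. In bulk RNA, more cells of a type and more of an miRNA per cell cannot be told apart.

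Levels are RPM, the reads of a precursor scaled to the total assigned to all miRBase precursors in the same library. The liver library held 327984 such reads, the reference pools 162080 to 3685761 and the brain libraries 388275 to 1204552, so that 3 reads, the limit that a count of 0 allows, stood for 9.15 RPM in liver. Intervals given for liver are 95% Wilson intervals and cover counting error only. The labelled tissue was checked first against mir-122 and mir-192. mir-122 stood at 14726 RPM in liver (14320 to 15144) and at no more than 8.17 RPM in any reference tissue, and mir-192 was the most abundant precursor of the library, so both markers were present at high levels. The pool labelled pancreas held both at almost the same level (14862 and 232017 RPM), while of the 7 precursors listed as known from pancreas mir-216a, mir-217 and mir-7b were at 0 there, mir-216b and mir-7a-2 at 4.96 RPM, mir-7a-1 at 14.9 RPM and mir-375 at 496 RPM. That library therefore goes against its label. It entered no value below unless named, and the counts of calls and the lists are also given with it in the reference.

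The mature sequences below, from RefSeq (GRCr8), are those of the miRNAs on which the comparison turned, each printed 5′ to 3′ with the seed (bases 2 to 8) in capitals. The first group are arms of precursors that stood high in liver, with the relatives that share a seed with them.
miR-122-5p: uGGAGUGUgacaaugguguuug
miR-192-5p: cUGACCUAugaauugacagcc
miR-215: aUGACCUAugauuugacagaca
miR-194-5p: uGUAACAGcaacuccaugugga
miR-101a-3p: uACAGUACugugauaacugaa
miR-101b-3p: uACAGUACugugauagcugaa
miR-148a-3p: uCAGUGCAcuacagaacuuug
miR-148b-3p: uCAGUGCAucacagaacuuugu
miR-152-3p: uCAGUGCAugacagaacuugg
miR-21-5p: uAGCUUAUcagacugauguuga

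The second group are arms of precursors that stood low in liver, shown with close relatives so that shared seeds can be read side by side.
miR-204-5p: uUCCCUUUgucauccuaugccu
miR-181a-5p: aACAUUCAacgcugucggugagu
miR-181b-5p: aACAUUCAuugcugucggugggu
miR-181c-5p: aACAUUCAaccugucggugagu
miR-181d-5p: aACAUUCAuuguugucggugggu
miR-146a-5p: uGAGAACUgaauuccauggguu
miR-146b-5p: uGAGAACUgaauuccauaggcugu
let-7f-5p: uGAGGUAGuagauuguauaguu
let-7i-5p: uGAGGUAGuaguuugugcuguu

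Within these families the arms differed outside the seed by few bases. Counted from 1 at the 5′ end, the second named against the first, miR-101a-3p and miR-101b-3p differed by 1 base (A16G), miR-181b-5p and miR-181d-5p by 1 (C12U), and let-7f-5p and let-7i-5p by 4 (A12U, A17G, U18C and A19U). Reads of such near copies can be split between relatives by the counting, so levels of single members are less certain than those of the family.

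A few miRNAs made up most of the liver library. Its 10 most abundant precursors took 75.7% of the reads, within the 53.4% to 84.7% seen in the other libraries. mir-192 alone took 22.9% of the reads, mir-22 took 13.3% and mir-148a 9.23%. let-7f-1 at 72809 RPM, mir-21 at 54878 RPM and mir-143, a smooth muscle and stromal miRNA, at 48896 RPM came next, followed by mir-30a, mir-27b, mir-10a and let-7f-2 between 30861 and 32642 RPM. Of these 10, only mir-192, mir-148a and mir-21 were 4-fold or more above the reference median. mir-122 was fourteenth, with 4830 reads or 1.47% of the library.

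Of 444 precursors listed, 277 averaged 10 RPM or more across the 14 tissues compared and were tested. A precursor was called higher when its log2(RPM + 1) in liver was at least 2 (4-fold) above the median of the 13 reference tissues and above each of them, and lower by the mirror rule. Liver was called higher for 11 precursors (3.97% of those tested) and lower for 18 (6.5%). These calls are folds and ranks, with no p-value: 1 library against 13 tissues cannot give an exact one-sided permutation p under 0.0714. The fold alone, without the rank, was passed upward by 23 (8.3%) and downward by 40 (14.4%). The median difference over all 277 was -0.41 on the log2 scale and 91 (32.9%) lay above the reference median. With this scaling and filter a typical precursor thus stood slightly lower in liver than in the reference. Under the 2 other scalings described at the end the median difference was -0.16 and -0.21. The scatter of liver against the reference median shows these calls.

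**Figure D1:**
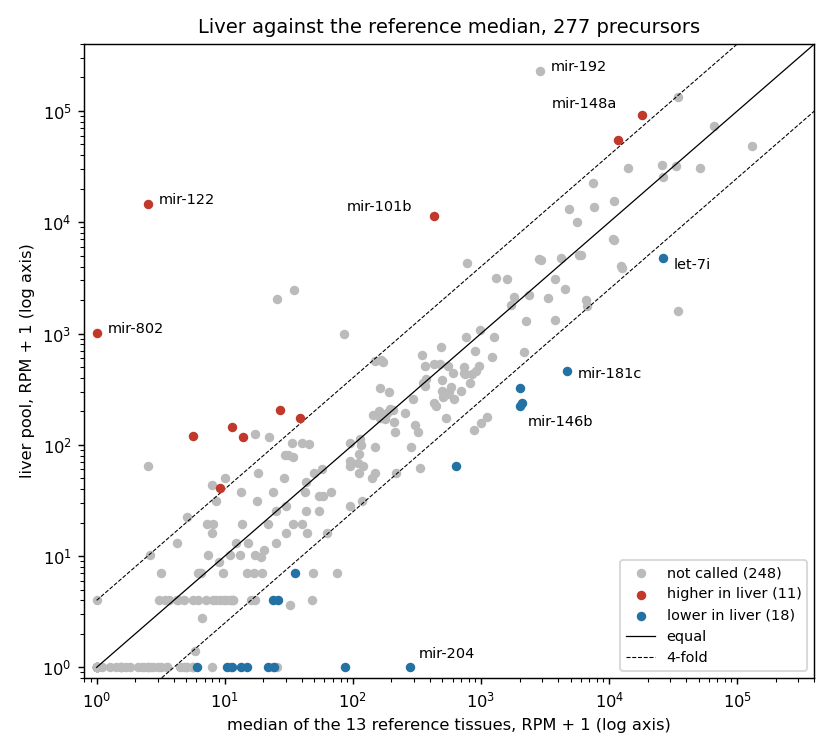
Level of each of the 277 precursors in the liver pool (vertical axis, RPM + 1, log scale) against the median of the 13 reference tissues (horizontal axis, same unit), with 1 point for each precursor and dashed lines at 4-fold. The 11 red points were above every reference tissue and the 18 blue points below every one, with mir-122 and mir-802 far above the line of equality and mir-204 at 0 in liver, while mir-192 is grey because small intestine was higher.

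mir-122 stood furthest from the reference. Its 14726 RPM in liver faced 0 RPM in brain, kidney, spleen and testes, a reference median of 1.52 RPM and a highest value of 8.17 RPM in fat. Liver was 1802-fold above fat, where the value rested on 4 reads, and no reference tissue overlapped with it. On the log2(RPM + 1) scale the difference from the reference median was 12.51. mir-122 was also 1 of 2 precursors (0.722% of 277) that edgeR's quasi-likelihood test placed above the spread between tissues, with a log2 fold change of 12.89 ± 1.14 (SE) and a Benjamini-Hochberg adjusted p of 4.3e-06. That test took liver to vary as 1 tissue among 14 and says nothing about variation between livers. mir-122, like mir-193a and mir-33, passed the filter on low values through its liver level alone (mean over the reference tissues 2.48 RPM), so it could only be tested by being high there, and with a filter that asked for 10 counts in 3 tissues it was not tested.

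mir-802, an miRNA known from liver and implicated in glucose metabolism, was the other precursor almost absent from most tissues. Liver held 1018 RPM (915 to 1134, 334 reads). It was listed at 0 in fat, muscle, skin, spleen, stomach, testes and thymus, and small intestine at 241 RPM, kidney at 39.2 RPM and large intestine at 11.1 RPM held nearly all the rest. Liver was 4.22-fold above small intestine, its nearest neighbour. In the separate RefSeq list, whose total includes miR-215, liver held 1157 RPM and small intestine 125 RPM. The difference of 9.99 from a reference median of 0 depends on the added 1 RPM, and in edgeR the adjusted p was 0.722.

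mir-101b, the other precursor called by edgeR, was present in every reference tissue. It stood at 11327 RPM in liver (10970 to 11695), against a lowest value of 161 RPM in large intestine, a median of 427 RPM and a highest of 1467 RPM in spleen. Liver was thus 26.5-fold above the median and 7.72-fold above the next tissue, with no overlap. edgeR gave a log2 fold change of 4.95 ± 0.51 (SE) and an adjusted p of 1.4e-05. Its relative mir-101a, of the same seed, stood at 3143 RPM in liver and 1296 RPM in the reference median, and kidney was higher at 3244 RPM. In the RefSeq annotation the gene of miR-101b, Mir101-2, lies within Rcl1.

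mir-148a and mir-21 were high in every tissue and highest in liver. mir-148a, a miRNA tied to hepatocyte differentiation and lipid handling, stood at 92294 RPM in liver, against 4762 RPM in brain as the lowest, a median of 17956 RPM and 41471 RPM in fat as the highest. The difference from the median was 2.36 on the log2 scale, and liver was 2.23-fold above fat. The other members with its seed did not share this, with mir-148b at 930 RPM (difference 0.30) and mir-152 at 201 RPM (difference 0.35). mir-21, an miRNA widely linked to growth and injury, stood at 54878 RPM in liver, against 1798 RPM in brain, a median of 11616 RPM and 36226 RPM in spleen, which left liver 1.51-fold above spleen. Neither passed edgeR at 0.05 (adjusted p 0.412 for mir-148a and 0.722 for mir-21).

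The other 6 precursors called higher were scarce. mir-193a stood at 119 RPM in liver (39 reads) against a highest of 18.9 RPM in stomach, and mir-671 at 143 RPM (47 reads) against 74.6 RPM in brain. mir-3559 stood at 204 RPM (67 reads) against 111 RPM in thymus, and mir-339 at 174 RPM (57 reads) against 89.0 RPM in spleen. mir-19b-2, a copy in the mir-106a-363 cluster, stood at 116 RPM (38 reads) against 79.7 RPM in spleen, and since its mature arm is the same as that of mir-19b-1 the split between the copies is uncertain. mir-33, which lies within Srebf2 and targets cholesterol export, stood at 39.6 RPM (13 reads, 23.2 to 67.8) against 32.8 RPM in spleen. When the liver interval had also to clear the interval of every reference tissue, an alternative added after the data were seen, mir-19b-2, mir-339 and mir-33 were lost and 8 of the 11 higher calls remained.

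Liver was also the highest tissue for mir-674, mir-455, let-7f-2 and mir-26b, which fell short of the fold (differences 1.63, 1.38, 1.14 and 0.72). Just inside it were mir-33 at 2.15 and mir-339 at 2.19, and just outside it mir-22, at 1.95, with 132839 RPM in liver and 141864 RPM in heart. These values place the line of the rule in a continuous range.

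**Figure D2:**
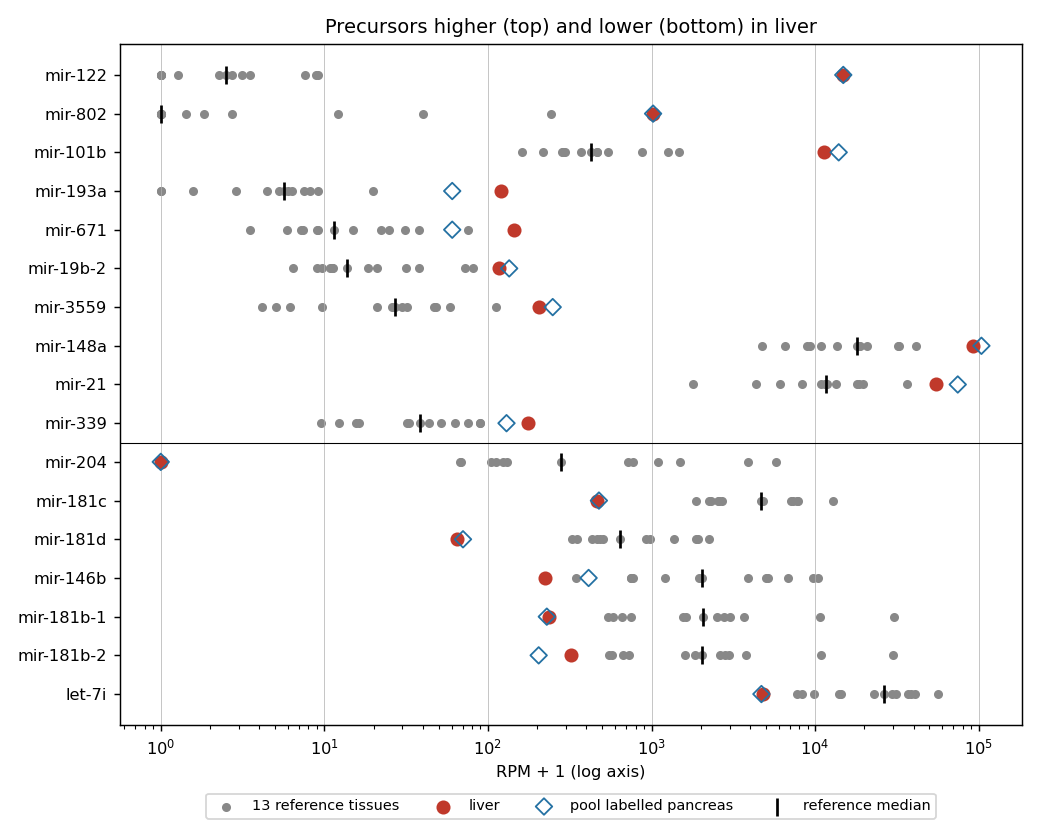
Levels (RPM + 1, log axis) of the 10 precursors called higher with at least 100 RPM in liver (top) and the 7 called lower with a reference median of at least 100 RPM (bottom), with 1 grey point for each of the 13 reference tissues, a tick at their median, a red point for liver and an open diamond for the pool labelled pancreas. Red points lie outside the grey points in every row, and the diamonds lie beside the red points, furthest from them for mir-193a, mir-671 and mir-146b.

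The group of miR-192 and miR-194 was high in liver without being restricted to it. mir-192 stood at 228719 RPM in liver (227284 to 230159), at 324177 RPM in small intestine, 202869 RPM in large intestine and 121188 RPM in kidney, and from 1116 RPM in muscle to 12905 RPM in stomach elsewhere. The difference from the median of 2882 RPM was 6.31 on the log2 scale. In the precursor list, which holds no mir-215, small intestine alone kept it from a call. mir-194-1 stood at 2034 RPM in liver, 14405 RPM in small intestine and 2797 RPM in large intestine (difference 6.32), and mir-194-2 at 2439, 11726 and 2975 RPM (difference 6.15). All 3 listed members passed the fold and none was called, since small intestine was higher for each.

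Among these 4 tissues miR-215 separated liver from gut. It has the seed of miR-192 and was counted only in the RefSeq list, whose RPM are relative to the total of that list. Mir215 had 23 reads in liver (79.7 RPM, 53.1 to 120), near the reference median of 97.9 RPM, but stood at 503409 RPM in small intestine, 54326 RPM in large intestine and 2182 RPM in kidney. In the same list Mir192 stood at 259909 RPM in liver and 167582 RPM in small intestine. The small intestine library held 468515 precursor reads and 906313 RefSeq reads, and 456246 of the latter were Mir215. Its precursor RPM are therefore scaled to a total without miR-215 and stand higher than its RPM in the RefSeq list. The order of liver and small intestine for miR-192 thus turned with the total used, and no order between these tissues is drawn. In the annotation Mir192 lies beside Mir194-2, and Mir215 lies beside Mir194-1 within Iars2.

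**Figure D3:**
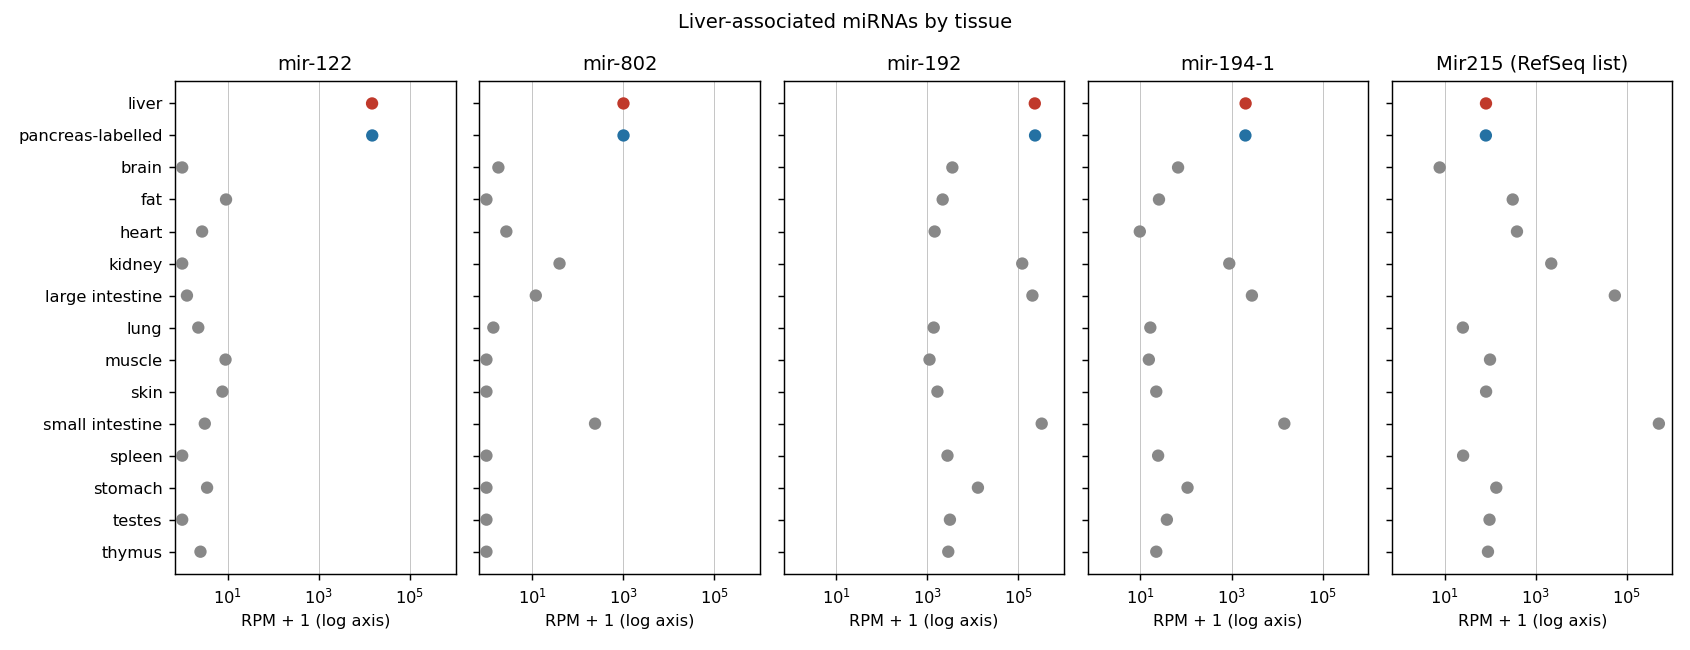
Levels (RPM + 1, log axis) of mir-122, mir-802, mir-192, mir-194-1 and, from the RefSeq list, Mir215 in liver (red), the pool labelled pancreas (blue) and the 13 reference tissues (grey), with 1 point a tissue. mir-122 is high in red and blue only, mir-192 and mir-194-1 are also high in kidney and both intestines, and Mir215 is high in the intestines and low in liver.

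Among precursors lower in liver were 4 of the 6 that carry the miR-181 seed. miR-181 is best known for setting the sensitivity of T-cell receptor signalling in thymus and is abundant in brain. mir-181c stood at 460 RPM in liver (393 to 540), against 1872 RPM in small intestine as the lowest, a median of 4695 RPM and 12888 RPM in brain as the highest. mir-181d stood at 64.0 RPM, against 324, 642 and 2235 RPM in the same order of lowest, median and highest. Neither range reached down to liver, and the lowest tissue was 4.07-fold above it for mir-181c and 5.05-fold for mir-181d.

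mir-181b-1 stood at 235 RPM in liver against 543 to 30382 RPM in the reference (median 2076 RPM), and mir-181b-2 at 320 RPM against 547 to 30128 RPM (median 2024 RPM), with thymus the highest for both. The copies of miR-181a lay in the same direction but were not the lowest, at 3855 RPM for mir-181a-1 and 4009 RPM for mir-181a-2 (differences -1.69 and -1.61), with 1 reference tissue lower. All 6 precursors with this seed thus lay below the reference median and 4 were called lower. Among all 277 precursors 166 lay below the median and 18 were called lower. mir-181b-1 and mir-181b-2 share the arm miR-181b-5p, so the 4 calls are not of 4 separate miRNAs.

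mir-204, which lies within Trpm3 and is known from retina, kidney and brain, had no read in liver, which allows up to 9.15 RPM. The reference held 66.8 RPM in thymus as the lowest, 278 RPM as the median and 5797 RPM in brain as the highest. Taken at that limit, liver was at least 30.4-fold lower than the median and at least 7.3-fold lower than thymus. mir-146b, an inhibitor of inflammatory signalling, stood at 223 RPM in liver (177 to 280) against 345 RPM in kidney, a median of 2021 RPM and 10360 RPM in lung. Its relative mir-146a, of the same seed, stood at 2229 RPM in liver and 2353 RPM in the reference median. let-7i stood at 4775 RPM in liver against 7791 RPM in small intestine, a median of 26377 RPM and 56266 RPM in spleen, a difference of -2.47.

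The remaining 11 lower calls had reference medians under 100 RPM and are weaker. They were mir-298, mir-9a-1, mir-9a-2, mir-9a-3, mir-708, mir-147, mir-324, mir-488, mir-212, mir-188 and mir-218a-2, none with more than 2 reads in liver. Over the 18 lower calls, 9 had no liver read and 12 had 3 or fewer, so at this depth they show that these miRNAs were under the detection limit and little about how far. With the intervals required to be apart, 7 of 18 remained, the same 7 as those with a reference median of at least 100 RPM. mir-218a-2, at -2.31, was the last inside the fold, and mir-449a (-1.98), mir-421 (-1.95) and mir-130b (-1.94) lay just outside it. edgeR called 0 lower at 0.05, with 6 lower and 11 higher at an unadjusted p under 0.05, and DESeq2 called 5 lower (mir-181b-1, mir-181c, mir-181d, mir-196a and mir-204) and 5 higher (mir-101b, mir-122, mir-1247, mir-339 and mir-671).

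Of the 63 precursors past the fold in either direction 34 were not called, because at least 1 reference tissue was as extreme. mir-10b, from the HoxD cluster, stood at 1604 RPM in liver against a median of 34234 RPM and 232046 RPM in testes, a difference of -4.42, and lung alone was lower at 1362 RPM. mir-10a, from the HoxB cluster, stood at 31014 RPM in liver and 51207 RPM in the reference median. mir-31a, named after its values were seen, lay the other way, at 983 RPM in liver against a median of 83.7 RPM, with skin higher at 2582 RPM. mir-196a and mir-1247, named above from DESeq2, were also among the 34. mir-196a had no liver read, ranked 11 among the tissues and had a reference median of 3.78 RPM, under the 9.15 RPM limit. mir-1247 stood at 64.0 RPM in liver (21 reads), with skin higher at 238 RPM.

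Lists of miRNAs known from cell types and clusters were then described by their counts and medians, beside the 11 higher, 18 lower and the median of -0.41 over all 277, of which 8.3% passed the fold upward and 14.4% downward. The lists were drawn up with earlier results of these data known, and their counts are a description. Of 25 hepatocyte precursors listed 24 entered, of which 7 were called higher and 0 lower, and their median difference was 1.98. The 7 were mir-122, mir-802, mir-101b, mir-193a, mir-148a, mir-21 and mir-33, of which mir-122, mir-193a and mir-33 passed the filter through liver alone. With the pool labelled pancreas in the reference 1 of the 24 was called higher (median difference 1.96), and over the other lists mir-146b alone was called. Others in the list stood close to the reference, such as mir-378a at 13742 RPM against 7645 RPM, mir-29a at 537 RPM against 425 RPM and mir-103-1 at 433 RPM against 752 RPM. The summed level of the list was 559391 RPM in liver, and 55668 RPM in lung to 425741 RPM in small intestine in the reference. Most of the liver sum was mir-192 at 228719 RPM and mir-22 at 132839 RPM, neither of them called. The small intestine sum is scaled to a total without miR-215.

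Markers of other cells found in liver gave no higher call. mir-126a, the endothelial miRNA, stood at 22419 RPM in liver against a median of 7506 RPM and 42495 RPM in heart, while mir-221 at 27.4 RPM lay below every reference tissue but within 4-fold of the median and mir-222 also lay below the median, so that 0 of the 3 endothelial precursors were called. Of 6 leukocyte precursors mir-146b was called lower and none higher, and mir-142, found across blood cells, stood at 4314 RPM against a median of 772 RPM and 65299 RPM in thymus. Both erythroid precursors lay above the median, with mir-144 at 125 RPM and mir-451 at 36.6 RPM, and spleen held 6790 and 6026 RPM. Of 6 stromal and smooth muscle precursors 5 lay below the median (median difference -1.20), as did 166 of all 277. Furthest below was mir-145, at 61.0 RPM against 333 RPM.

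Lists of other tissues held no precursor called higher in liver. Over all 277 precursors 14.4% passed the fold downward and 6.5% were called lower. Of 13 neuronal precursors that entered 3 were called lower, the copies of mir-9a, and 0 higher. These 3 had no liver read, and their lowest reference values of 1.25 to 2.38 RPM lay under the 9.15 RPM limit. None of the 3 was called with a pseudocount of 10 RPM. The summed level of the neuronal list, 101 RPM, lay below the 189 RPM of the lowest reference tissue, lung. Summed striated muscle precursors stood at 57.9 RPM in liver against 70671 RPM in muscle, with mir-1, mir-206 and mir-208a at 0. Of 7 epithelial precursors 3 passed the fold downward, mir-141, mir-429 and mir-205, and 0 were called, while mir-203a at 533 RPM lay above its reference median of 475 RPM and the summed level of 1515 RPM lay above the lowest, 88.5 RPM in heart. Of the 23 members of the imprinted Dlk1-Dio3 cluster that entered, 7 passed the fold downward and 0 were called, since other tissues were as low or lower. mir-134, mir-329, mir-379 and mir-380 among the 7 had no liver read and reference medians of 3.47 to 10.1 RPM, near or under the 9.15 RPM limit, and 5 members of the 23 lay above their medians. Its summed level was 942 RPM in liver, 212 RPM in lung and 77788 RPM in brain.

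Families read in the same way were mixed. Over all 277 precursors, 91 lay above the median, 166 lay below it and 14.4% passed the fold downward. Of 12 precursors of the mir-17-92 and mir-106b-25 clusters and their copies 8 lay above the median, 1 was called (mir-19b-2) and the median difference was 1.11, with mir-92a-1 at 13162 RPM against 4886 RPM. Of 11 let-7 precursors listed 8 lay below the median and let-7i alone was called lower, while let-7f-2 was highest in liver. The split between let-7f-1 and let-7f-2 is uncertain, since they share the arm let-7f-5p. For that arm liver was the fifth tissue, at 115897 RPM against 159098 RPM in spleen. let-7g, of the same seed but outside the list, stood at 4723 RPM (difference 0.16). None of the 5 mir-30 precursors passed the fold in either direction, with a median difference of 0.34. Of 6 mir-10 and mir-196 precursors 4 passed the fold downward and 0 were called.

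The mature arms were counted in a separate list, scaled to its own total of 211670 liver reads. miR-122-5p stood at 9151 RPM in liver (8754 to 9566) and made up 99.6% of the arm reads of its precursor, and the highest reference tissue was fat at 9.43 RPM. miR-101b-3p stood at 3557 RPM against a reference median of 77.2 RPM, miR-21-5p at 27472 RPM against 22796 RPM in spleen and miR-802-3p at 468 RPM against 128 RPM in small intestine. Ranks of liver for arms and precursors were not always the same, and 2 arms were highest in liver though their precursors were not. miR-22-3p was highest in liver, at 203978 RPM against 184755 RPM in heart (difference 2.27), and so was miR-101a-3p, at 1115 RPM against 1025 RPM in kidney, whereas heart and kidney were higher for the precursors. For each precursor called higher at 100 RPM or more, the arm with most reads was highest in liver, except miR-19b-3p, for which liver was the third tissue at 1044 RPM. miR-21-5p and miR-339-3p fell short of the fold, with differences of 1.89 and 1.68 from the reference median. miR-339-3p rested on 31 liver reads, at 146 RPM against 107 RPM in fat.

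The 2 lists did not hold the same reads for each miRNA, which bears on how levels are read. In liver 99.1% of mir-22 precursor reads were counted as an arm, but 66.6% for mir-192, 40.2% for mir-122, 32.9% for mir-21, 20.3% for mir-101b and 6.33% for mir-148a. For mir-148a the lowest reference tissue was at 4.72% and the median at 6.10%, so liver was close to the middle. Of the arm reads that were counted, 1439 were of miR-148a-5p and 476 of miR-148a-3p, the arm usually given as the guide. For mir-192 (72.6% to 87.0%), let-7f (72.1% in liver, 84.0% to 90.0%) and mir-27b (84.0% in liver, 87.9% to 93.1%) liver lay below every reference tissue. By narrower gaps it was also below every one for mir-21 (33.1% to 51.8%), mir-22 (99.4% to 99.7%) and let-7i (80.5% in liver, 81.0% to 86.3%). The same held for mir-181d and mir-148b. For mir-101b (6.83% to 18.7%) and mir-101a (23.1% in liver, 16.5% to 22.7%) it lay above every one. Ranks of different miRNAs within liver therefore depend on the list, with mir-148a the third precursor at 92294 RPM and its arms at 6798 and 2249 RPM.

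**Figure D4:**
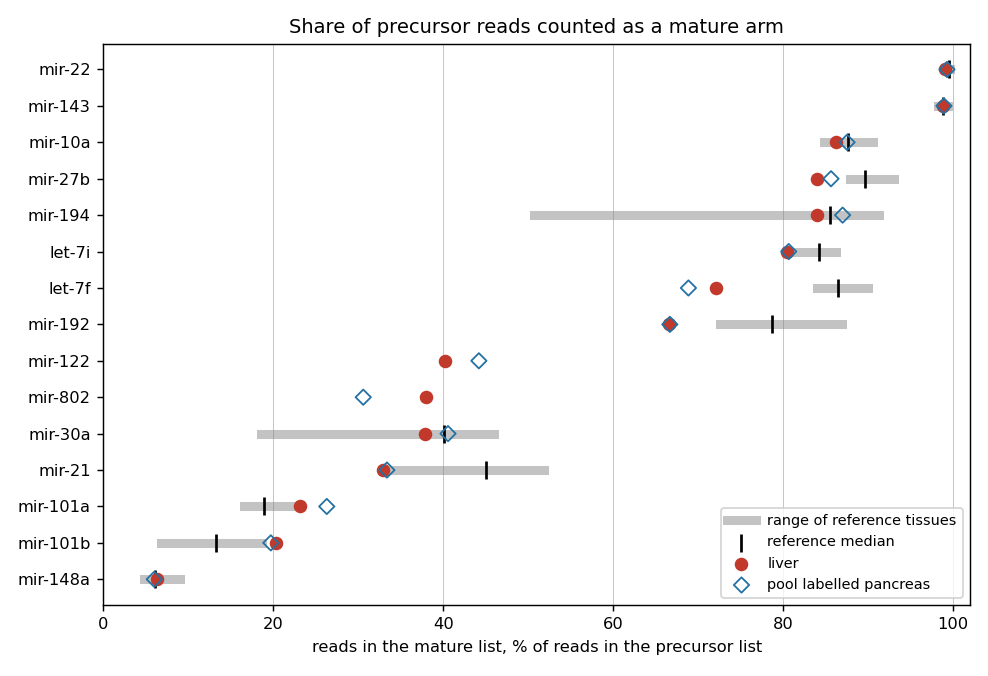
Reads counted as a mature arm as a percentage of reads counted for the precursor, for 15 miRNAs, in liver (red points), in the pool labelled pancreas (open diamonds) and over the reference tissues with at least 100 precursor reads (grey bars from lowest to highest, tick at the median). The share runs from 6.33% for mir-148a to 99.1% for mir-22 in liver, and red points lie left of the grey bar by the widest gaps for mir-192, let-7f and mir-27b. No bar is drawn where fewer than 2 reference tissues had enough reads.

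The pool labelled pancreas differed little from liver. Over the 277 precursors the correlation of log2(RPM + 1) with liver was 0.971, against 0.989 to 0.990 between brain libraries of different rats. The next tissues were small intestine at 0.884, stomach at 0.861 and kidney at 0.854, and brain was the least like liver at 0.544. These coefficients are across precursors of shared abundance, which are not independent. Of 104 precursors with at least 100 RPM in both pools 101 were within 2-fold, and the SD of their log2 differences was 0.49, above the 0.19 to 0.37 of brain pairs and below the 0.81 or more of the other pairs of libraries.

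By a fold of at least 4 and a 95% exact counting interval of the ratio that left out 1, liver was higher than that pool for 4 of 277 precursors (1.44%) and lower for 1 (0.361%), none with 100 RPM in either. The 4 were mir-1247 (21 against 2 reads, ratio 6.46, interval 1.58 to 56.8), mir-300 (15 against 2), mir-133a (12 against 0) and mir-378b (10 against 0), and the 1 was mir-499 (4 against 11 reads, ratio 0.224, 0.0519 to 0.755). This sets 1 library against another, not a tissue against a tissue, and the 5 named here were chosen after their values were seen. Smaller differences were more common among abundant precursors: of the 104, the interval left out 1 for 44 higher and 20 lower in liver. mir-92a-1 at 13162 against 5626 RPM and mir-378a at 13742 against 7466 RPM were higher in liver, while mir-148a at 92294 against 103893 RPM, mir-21 at 54878 against 74472 RPM and mir-146b at 223 against 411 RPM were lower.

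**Figure D5:**
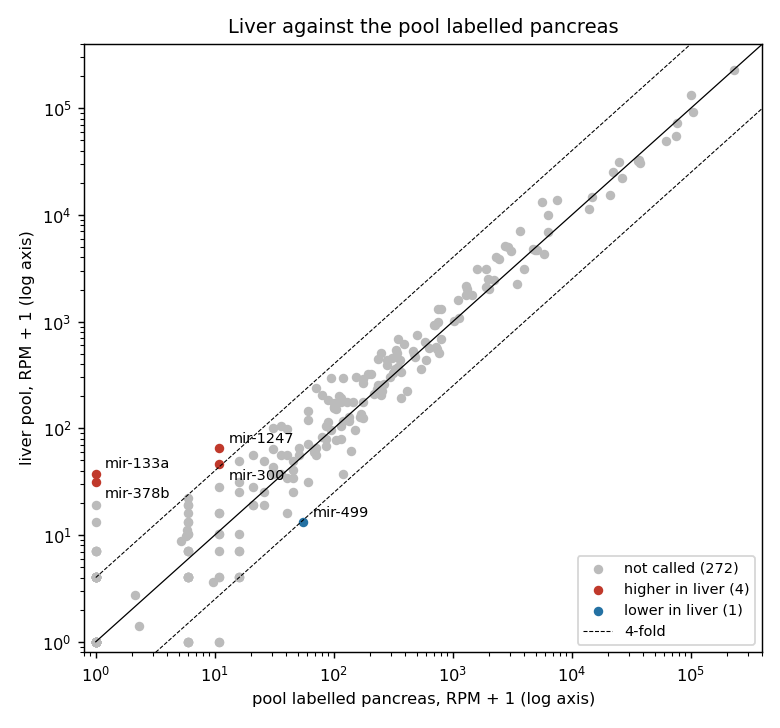
Level of each of the 277 precursors in liver (vertical axis, RPM + 1, log scale) against the pool labelled pancreas (horizontal axis, same unit), with 1 point for each precursor, a line of equality and dashed lines at 4-fold. Points with at least 100 RPM in both pools lie between the dashed lines, and the 5 coloured points past the fold rest on 21 reads or fewer.

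The calls for liver depended on leaving that pool out. Of the 11 precursors higher in liver 10 also lay above every reference tissue in the pool labelled pancreas, and of the 18 lower 15 also lay below every one. With it added as a fourteenth reference tissue, 3 precursors were called higher (mir-193a, mir-339 and mir-671) and 5 lower (mir-146b, mir-147, mir-181c, mir-181d and mir-188). mir-122 (14726 against 14862 RPM), mir-802 (1018 against 1021 RPM) and mir-101b (11327 against 13940 RPM) were no longer called, and edgeR called 0 either way (adjusted p 0.786 for mir-122 and for mir-101b). Of the markers known from pancreas, mir-217 had 1 read in liver and 0 in the other pool. mir-375, the only listed one that passed the filter, was not low, at 753 and 496 RPM against a reference median of 486 RPM. What tissue that pool held was not tested.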

How the data were processed

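Small RNA libraries (TruSeq, sequenced on a MiSeq) of untreated rats were trimmed at phred 20, aligned with Bowtie to Rn5 and quantified in Partek software against miRBase 21 and RefSeq by the authors. The deposited values are estimated counts, not all whole, in 3 stacked lists: 388 RefSeq, 444 precursor and 577 mature features. Here precursor counts were divided by the precursor total of each library (liver 327984 reads, 3 reads or 9.15 RPM being its detection limit), brain was the mean of 3 libraries, and log2(RPM + 1) in liver was compared with the median of 13 tissues, for precursors with a mean of at least 10 RPM over 14 tissues. Counts were rounded to whole numbers for edgeR 4.0.16 (TMM, quasi-likelihood, liver against 13 tissue libraries with summed brain, 12 residual degrees of freedom) and DESeq2 1.42.0 in R 4.3.3, and Benjamini-Hochberg adjusted p under 0.05 was called. The SE printed with an edgeR fold change was derived, as the absolute log2 fold change divided by the square root of its F statistic. The edgeR step was run on simulated data with changes larger than the differences of most calls here. That run does not measure how well smaller ones are found. Python 3.11.15 with SciPy 1.17.1 gave the other values. Sequences were looked up by name in RefSeq (GRCr8), where 53 of 57 arms matched. Coordinates were not used because the build differs.

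The pool labelled pancreas and serum were left out of the reference. Alternatives were the scaling (TMM, DESeq2 size factors), the pseudocount, the filter, the fold, the mean in place of the median, each library left out and the excluded pool put back. Named precursors were the 15 at most of largest difference among those higher with at least 100 RPM in liver, the 10 at most among those lower with a reference median of at least 100 RPM, the 10 most abundant in liver, the called ones against the pool labelled pancreas with at least 100 RPM, list members at 100 RPM or more and precursors whose call changed. Members and lists were chosen with earlier results of these data known. p-values measure spread between tissues of the same rats.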

Additional observations from a re-analysis of the deposited data

Results flagged for a closer look

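Serum was outside the comparison, and 3 precursors called higher in liver had at least 3 reads in each of its 3 libraries. In those libraries 3 reads stood for 276 to 397 RPM, so absence of the other called precursors from serum was not shown. mir-122 averaged 57887 RPM over the 3 serum libraries, with 21175, 142147 and 10340 RPM in the single libraries (160, 1544 and 82 reads). mir-148a averaged 12260 RPM (± 1647 SD, n = 3), with 95 to 117 reads a library, and mir-21 averaged 1208 RPM (± 297 SD, n = 3), with 9 to 12 reads a library. For mir-122 the SD of 73172 RPM was larger than the mean, and 1 library set it. The serum libraries held 7556 to 10862 precursor reads.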

How the results depend on the processing

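Scaling by TMM or by DESeq2 size factors kept all 11 higher and all 18 lower calls (13 and 19 in all), while the median difference over all precursors moved from -0.41 to -0.16 and -0.21. Among 28 named differences under 9 alternatives, 252 values in all, 248 kept their sign and 171 stayed within the counting interval. The 4 that turned were of precursors not called: mir-27b, from -0.04 to 0.08 by TMM, 0.18 by DESeq2 size factors and 0.04 with the mean as the reference, and mir-10a, from -0.72 to 0.08 with the mean. Counts that moved by over 1.5 times were as follows. Higher calls were 6 at a log2 fold of 3 and 3 with the pool labelled pancreas in the reference, and lower calls were 8 with a pseudocount of 10 RPM, 5 with that pool and 7 with intervals apart. edgeR's higher calls were 0 with that pool, 5 by DESeq2 and 1 when at least 10 counts were asked in 3 tissues, which leaves mir-122 out, and its lower calls were 5 by DESeq2 (29 adjusted p-values not given). Against the pool labelled pancreas, the 4 higher were 2 with a pseudocount of 10, 15 at a log2 fold of 1 and 2 at 3, and the 1 lower was 0 with TMM, 0 with a pseudocount of 10, 3 at a fold of 1 and 0 at 3. With each library left out in turn, higher calls ranged from 11 to 13, lower from 18 to 23 and edgeR's from 2 to 2 and 0 to 0. Without small intestine mir-192 was also called higher, and without lung mir-10b lower. The RefSeq list gave 13 higher and 14 lower of 250, with Mir192, Mir22 and Mir674 added among the higher. The calls of mir-148a, let-7i, mir-181b-2, mir-488 and mir-708 had no counterpart there. Whether these genes were missing from that list or lost their call was not examined. The liver library itself could not be left out. No paired analysis was possible because liver has 1 library and shares fewer than 2 replicate numbers with any tissue.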
